A study of Rattus norvegicus with 12 samples.

Results

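The RNA of 5 enzymes that oxidize or reduce foreign compounds and aldehydes was followed in rat lung after silica instillation. They are the flavin-containing monooxygenases Fmo1 and Fmo2, the aldehyde oxidase Aox3, the aldehyde dehydrogenase Aldh1a1 and the aldo-keto reductase Akr1cl. The members are the genes of these symbols in the study's own list of probes that differed at day 28, which is also the source of gene names here. They are 5 of the 1099 genes that could be named, and each has 1 probe.

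Lung RNA of 12 male Wistar rats was hybridized to single-colour Agilent arrays, with 1 rat per array. The model rats had received a single intratracheal instillation of silicon dioxide, 1 mL at 50 mg/mL, and the control rats 1 mL of saline. The labels form 4 groups of 3 rats, which are day 14 saline, day 14 silica, day 28 saline and day 28 silica. Titles also give the dose as 50 mg/kg. For the day 14 arrays the title and time point say 14 days, whereas the protocol text shared by all arrays says 28 days. The methods describe rats of day 28 only, whose lungs were selected by histological change and so are not a random draw of the exposed animals. They do not describe the day 14 groups, and how those lungs were selected is not known here. The age of the rats is not given in the labels. The sample is whole lung, and its cell type markers are described after the enzymes. In such bulk RNA, fewer cells of a type and less RNA per cell cannot be told apart.

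Flavin-containing monooxygenases add oxygen to the nitrogen or sulphur atom of amines, thioethers and other soft nucleophiles. Fmo2 is known as the main pulmonary form in many mammals, while Fmo1 is best known from liver and kidney and is also made in rodent lung. The arrays measure RNA, so whether an active enzyme is made in these rats is not known here. Aldehyde oxidases are molybdenum enzymes that turn aldehydes and nitrogen heterocycles into acids or lactams. Aldh1a1 is a cytosolic NAD-dependent dehydrogenase that oxidizes retinaldehyde to retinoic acid and clears aldehydes of lipid peroxidation. Aldo-keto reductases use NADPH to reduce carbonyl groups to alcohols.

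The members lie on chromosomes 13 (Fmo1 and Fmo2), 9 (Aox3), 1 (Aldh1a1) and 17 (Akr1cl). In the RefSeq annotation of the assembly GRCr8, Fmo1 and Fmo2 are adjacent protein-coding genes, with Fmo4 on the other side of Fmo1 and Fmo6 on the other side of Fmo2. Aox3 stands between Aox1 and Aox4. Akr1cl carries the symbol Akr1c15 there and stands beside Akr1c14. The probes of the adjacent pair are shown because a neighbouring family member could share a signal. They are 60 bases long and are written 5′ to 3′ with no part singled out.
Fmo1 probe: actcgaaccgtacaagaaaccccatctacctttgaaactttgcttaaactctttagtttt
Fmo2 probe: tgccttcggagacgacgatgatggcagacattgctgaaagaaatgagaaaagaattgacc
No other probe of the array shared a run of 20 or more bases with the probe of any member. This compares probes only, so it cannot show whether the transcript of a related gene binds a member's probe. The Fmo1 probe was spotted 10 times on each array, and its spots varied on an array by an SD of 0.017 to 0.084 on the log2 scale. The other members had 1 spot per array.

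The 250 bases before the start site are shown for the adjacent genes Fmo1 and Fmo2, and for Akr1cl, which holds a motif that the others lack. Sequence and positions are from RefSeq, assembly GRCr8, and all 3 genes are on the minus strand. Capitals mark matches to CCAAT or TGACNNNGC on either strand.
Fmo1, chr13:77747667-77747916: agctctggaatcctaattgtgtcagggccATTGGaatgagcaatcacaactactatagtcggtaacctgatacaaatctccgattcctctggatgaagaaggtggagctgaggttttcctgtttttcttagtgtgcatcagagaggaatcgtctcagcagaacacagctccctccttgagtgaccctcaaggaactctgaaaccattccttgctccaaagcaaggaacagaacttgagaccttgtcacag
Fmo2, chr13:77777535-77777784: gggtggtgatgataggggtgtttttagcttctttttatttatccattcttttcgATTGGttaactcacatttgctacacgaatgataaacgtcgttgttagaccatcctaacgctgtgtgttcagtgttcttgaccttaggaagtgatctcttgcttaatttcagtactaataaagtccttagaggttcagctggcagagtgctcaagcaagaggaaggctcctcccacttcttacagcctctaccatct
Akr1cl (Akr1c15), chr17:71117958-71118207: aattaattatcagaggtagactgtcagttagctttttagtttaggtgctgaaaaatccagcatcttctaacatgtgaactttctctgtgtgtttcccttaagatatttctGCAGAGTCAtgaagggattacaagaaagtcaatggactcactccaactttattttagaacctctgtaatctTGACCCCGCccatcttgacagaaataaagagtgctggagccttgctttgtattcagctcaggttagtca
The Akr1cl window held 2 matches to TGACNNNGC, the core of the antioxidant response element, starting at positions -140 and -69 from the start site. This core occurred in 10.1% of the 33469 promoter windows of that length, and 2 or more matches in 0.627%. The windows of the other 4 members held no match to it. CCAAT occurred once in Fmo1, Fmo2 and Aox3 and at 2 positions in Aldh1a1, and in 34.0% of all windows. No member's window held GCGTG (25.9% of all windows), TGANTCA (6.34%), TATAAA (12.9%) or the palindrome of the glucocorticoid response element (0.373%). A match is a description of letters, and its absence says only that these letters are not in the window.

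All signals below are log2 values after quantile normalization over the 12 arrays, so that a difference of 1 is a fold of 2. Levels of different probes cannot be set against each other. Because the study listed the members for differing on the day 28 arrays with a fold of at least 2, the day 28 values, and every difference that uses them, are given without a test. The day 14 rats took no part in that listing, but the 5 members were picked from it with earlier results of these data known. The pick may thus not be independent of the day 14 values. The day 14 contrast was tested with limma and Benjamini-Hochberg adjustment over 34097 probes. Each probe's spread was estimated over all 12 arrays, so the day 28 arrays enter the day 14 standard errors and p-values. At day 14, Fmo2 (-2.07), Fmo1 (-1.80) and Aldh1a1 (-1.53) fell, while Aox3 and Akr1cl did not pass the test. With limma on the 6 arrays of day 14 alone, Fmo2 (adjusted p = 0.0056) and Fmo1 (adjusted p = 0.031) passed. Aldh1a1 (adjusted p = 0.055), Aox3 and Akr1cl did not pass there. In the fit of all 12 arrays, 3 of 5 members passed as lower, against 8.24% of all probes tested. The closer background is the other named genes, which came from the same day 28 list. Of the 519 with a day 28 difference below 0, 344 (66.3%) passed as lower at day 14, with a median difference of -1.01, so the members' share was near that of genes chosen the same way.

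**Figure D1:**
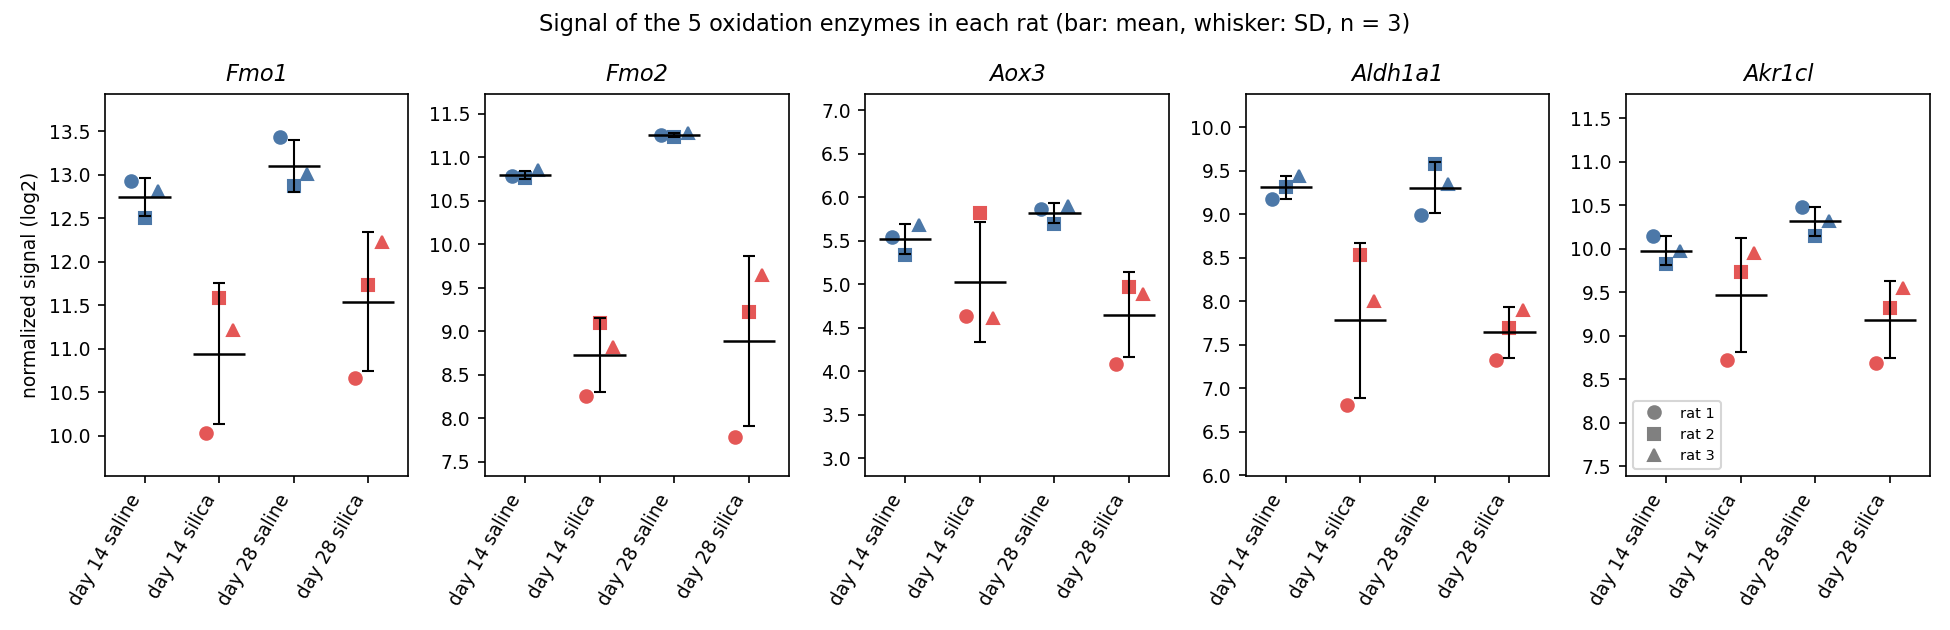
Normalized log2 signal of the 5 enzymes in each rat, with saline in blue, silica in red, a symbol for each rat number, a bar at the mean and a whisker of 1 SD (n = 3). Panels have their own range but the same span. Silica rats lie below all saline rats of their day except for Aox3 and Akr1cl at day 14.

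Fmo2 had the largest difference of the 5 members on both days. At day 14 its signal was 10.79, 10.76 and 10.85 in the saline rats and 8.26, 9.10 and 8.82 in the silica rats. The groups did not overlap, which held for silica below saline in 18.7% of all probes and in 425 (81.9%) of the 519 listed genes. The difference was -2.07 ± 0.38 (SE), a 4.21-fold lower signal (limma adjusted p = 0.0067). It passed without any one of the 6 rats of day 14, with adjusted p between 0.0089 and 0.030, but not with the methods' t-test in place of limma (adjusted p = 0.080). At day 28 the signal was 11.25, 11.24 and 11.28 in saline and 7.79, 9.23 and 9.65 in silica, a difference of -2.37 ± 0.38, or 5.16-fold. Saline rats were tightly grouped, with an SD of 0.046 at day 14 and 0.022 at day 28, whereas the SD of the silica rats was 0.42 and 0.98. In order of level, day 28 saline (mean 11.26) stood above day 14 saline (10.80), and day 28 silica (8.89) and day 14 silica (8.73) followed. The saline groups were 0.46 ± 0.38 (SE) apart without overlap, and the silica groups overlapped.

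Fmo1, the neighbour of Fmo2, was lower in every silica rat than in any saline rat of the same day. At day 14 the saline rats read 12.92, 12.50 and 12.81 and the silica rats 10.03, 11.58 and 11.22. The difference was -1.80 ± 0.43 (SE), a 3.48-fold lower signal (limma adjusted p = 0.019). Silica rat 1 was the lowest by more than 1 log2 unit, and without it the difference was -1.33 (adjusted p = 0.060). The call was also lost without saline rat 1 (-1.72, adjusted p = 0.063) and without saline rat 3 (-1.77, adjusted p = 0.064), and with the methods' t-test (adjusted p = 0.15). At day 28 the saline rats read 13.44, 12.86 and 13.004 and the silica rats 10.67, 11.73 and 12.22, a difference of -1.56 ± 0.43, or 2.95-fold. The order of means was day 28 saline (13.10 ± 0.30, SD), day 14 saline (12.74 ± 0.22), day 28 silica (11.54 ± 0.80) and day 14 silica (10.94 ± 0.81). Neither the saline pair nor the silica pair of neighbours differed beyond its spread.

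Aldh1a1, the retinaldehyde dehydrogenase, had the same order of groups by treatment, with nearly equal saline levels on the 2 days. The day 14 signal was 9.18, 9.32 and 9.44 in saline and 6.81, 8.54 and 8.003 in silica. The groups did not overlap, and the silica rats spread over 1.73 log2 units. The difference was -1.53 ± 0.36 (SE), a 2.89-fold lower signal (limma adjusted p = 0.017). The call was lost without saline rat 2 (-1.53, adjusted p = 0.052), without saline rat 3 (-1.46, adjusted p = 0.064), with the 6 arrays of day 14 normalized and fitted alone (-1.51, adjusted p = 0.055) and with the methods' t-test (adjusted p = 0.20). At day 28 the saline rats read 8.998, 9.57 and 9.35 and the silica rats 7.33, 7.70 and 7.90, a difference of -1.66 ± 0.36, or 3.17-fold. The mean was 9.31 in both saline groups, 7.78 in day 14 silica and 7.64 in day 28 silica, and the latter did not differ beyond their spread.

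Aox3, the aldehyde oxidase, was the member whose probe was not well above background on every array, as it missed this on silica rat 1 of day 28. At day 14 the saline rats read 5.54, 5.33 and 5.68 and the silica rats 4.63, 5.82 and 4.62. Silica rat 2 was above all saline rats, and the other two were below them. The difference was -0.49 ± 0.32 (SE), with a limma adjusted p of 0.33. The value depended on single rats, being -0.30 (adjusted p = 0.67) without silica rat 1, -0.29 (adjusted p = 0.64) without silica rat 3 and -0.89 (adjusted p = 0.032) without silica rat 2. At day 28 the saline rats read 5.87, 5.69 and 5.90 and the silica rats 4.09, 4.97 and 4.89. These groups did not overlap and differed by -1.17 ± 0.32, or 2.25-fold. With normexp background correction, which adds an offset of 50 to every signal, the difference was -0.19 at day 14 (adjusted p = 0.35) and -0.46 at day 28. The order was day 28 saline (5.82), day 14 saline (5.52), day 14 silica (5.02) and day 28 silica (4.65), and the silica neighbours overlapped.

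Akr1cl, the aldo-keto reductase, had a day 28 difference near that of Aox3. At day 14 the saline rats read 10.15, 9.82 and 9.97 and the silica rats 8.72, 9.73 and 9.95. Silica rat 3 lay within the saline range, silica rat 2 was just under it, and silica rat 1 was lower by about 1 log2 unit. The difference was -0.51 ± 0.30 (SE), with a limma adjusted p of 0.29, and it was -0.14 (adjusted p = 0.79) without silica rat 1. At day 28 the saline rats read 10.48, 10.15 and 10.31 and the silica rats 8.69, 9.32 and 9.55. These groups did not overlap and differed by -1.13 ± 0.30, or 2.19-fold. Akr1cl and Aox3 were the members closest to the fold threshold of the list at day 28. The order was day 28 saline (10.32), day 14 saline (9.98), day 14 silica (9.47) and day 28 silica (9.18), and the day 14 groups and the silica groups overlapped.

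**Figure D2:**
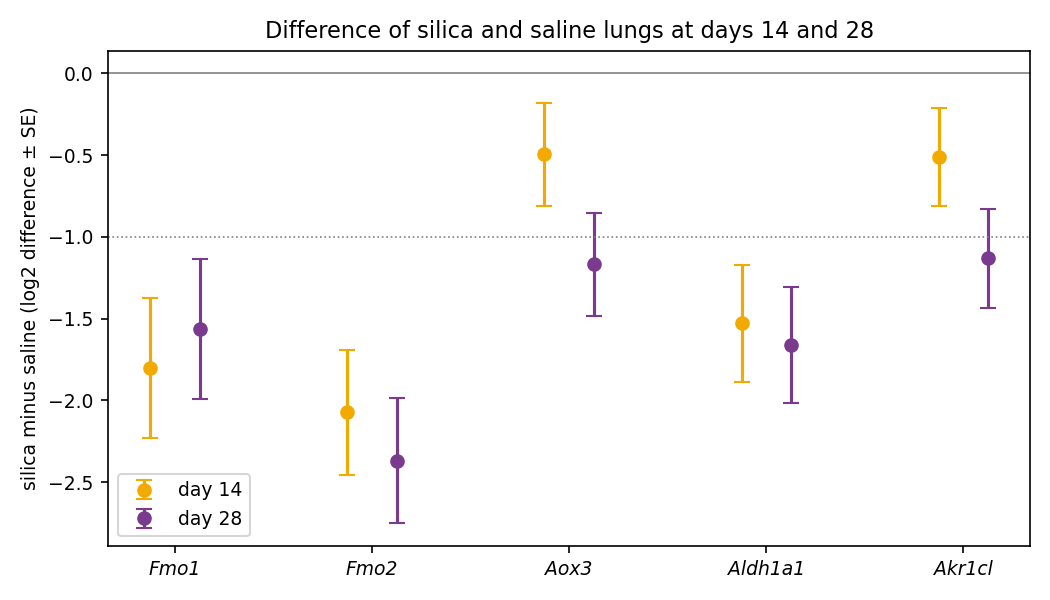
Difference of silica and saline lungs (log2, mean ± SE of the fit) for each enzyme at day 14 and day 28, with a dotted line at a fold of 2 lower. Fmo1, Fmo2 and Aldh1a1 lie below that line on both days, and Aox3 and Akr1cl are near -0.5 at day 14 and below -1 at day 28.

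All 5 members were lower in every silica rat than in every saline rat at day 28, which the choice of the list largely fixed. Non-overlap with silica lower was seen in 23.4% of all probes at day 28, and 14.0% passed as lower. The change of the silica difference from day 14 to day 28 was -0.67 ± 0.45 (SE) for Aox3 and -0.62 ± 0.43 for Akr1cl. It was 0.24 ± 0.60 for Fmo1, -0.29 ± 0.54 for Fmo2 and -0.13 ± 0.50 for Aldh1a1. Without day 14 silica rat 1 the change was -0.99 ± 0.31 for Akr1cl and -0.62 ± 0.31 for Aldh1a1. Each was the lowest of the 12 fits that left out 1 rat. The highest of those fits was -0.37 for Akr1cl and 0.25 for Aldh1a1. These values were not tested. Over all probes the limma interaction of silica and day passed for 0 probes after adjustment, and for 3386 (9.93%) at an unadjusted p under 0.05. A day 14 call without a call for another member does not show that the members differ. In an exact two-sided permutation test of the day 14 rats, Fmo1, Fmo2 and Aldh1a1 each gave p = 0.1, the smallest that 3 against 3 allows, Akr1cl gave p = 0.2 and Aox3 p = 0.4.

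The slides divided the day 28 groups unevenly. The 3 silica rats and saline rat 1 of day 28 were on slide 1, and all other arrays, including every day 14 array, were on slide 2. The silica groups of the 2 days thus shared no slide, and between them day and slide cannot be told apart. Silica day 28 minus day 14 was 0.60 for Fmo1, 0.16 for Fmo2, -0.37 for Aox3, -0.14 for Aldh1a1 and -0.28 for Akr1cl. Slide as a block can be estimated only from day 28 saline rat 1 against the other saline rats of that day. With this block the values were 0.096, 0.17, -0.45, 0.33 and -0.53 in that order. These values were not tested. Within slide 1 the day 28 difference, which rests on 1 saline rat, was -2.36 for Fmo2, -1.90 for Fmo1, -1.35 for Aldh1a1, -1.30 for Akr1cl and -1.22 for Aox3.

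Within a silica group the enzymes tended to be lowest in the same rat, as were most probes that passed as lower. Silica rat 1 had the lowest signal of its group for all 5 members at day 28 and for 4 of 5 at day 14, where Aox3 was marginally lower in silica rat 3. This rat was also the lowest in 76.1% of the 2808 probes that passed as lower at day 14 and in 65.6% of the 4787 at day 28. The rat numbers of the 2 days belong to different animals. After each group's mean was subtracted, the pairwise Pearson r of members over the 12 arrays was between 0.54 (Aox3 with Akr1cl) and 0.94 (Fmo1 with Akr1cl). It was 0.88 for the adjacent genes Fmo1 and Fmo2. These points share the normalization of each array, and the values are a description. No such r was computed for other listed genes, so the values do not show a trait particular to the members.

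**Figure D3:**
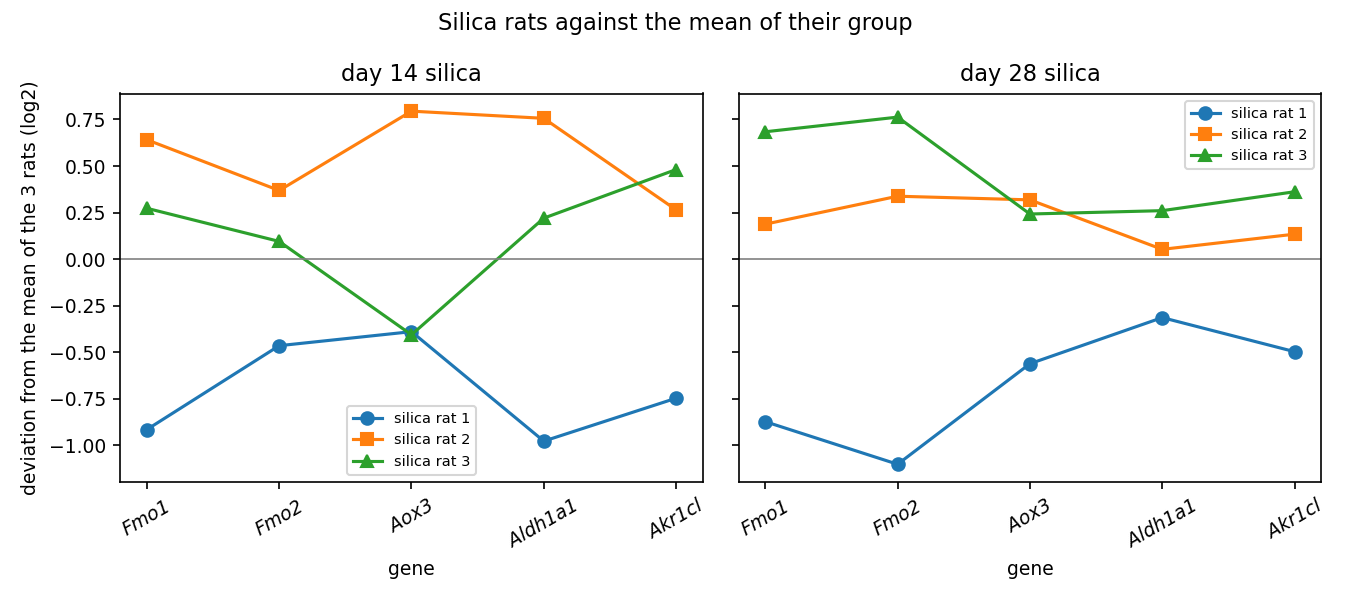
Deviation of each silica rat from the mean of its 3 rats (log2) for the 5 enzymes, at day 14 on the left and at day 28 on the right. Silica rat 1 lies below the mean for every enzyme on both days, and at day 14 rat 3 joins it for Aox3.

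Over all 12 arrays, each member had named genes with a closer pattern than the other members had. Far more named genes than members were searched, so this was likely beforehand and does not show that the members are unlike each other. The measure was Pearson r with the 1098 other named genes, of which each gives its brightest probe, and it includes the group differences that put most of these genes on the list. Fmo1 was most like Ace (r = 0.99), the angiotensin-converting enzyme, Adgrf5 (0.99), an adhesion receptor, and She (0.99). Fmo2 was most like Artn (0.99), which encodes artemin, Abhd15 (0.99) and Cbfa2t3 (0.99), a transcriptional corepressor. Aldh1a1 was most like Ecscr (0.99), Myzap (0.98) and Tppp3 (0.98). Akr1cl was most like the junction genes Ppl (0.97) and Jup (0.96), with Akap2 (0.97) between them. Aox3 had the weakest likeness, with Corin (0.94), Tspan12 (0.93) and Trhde (0.92).

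Other enzymes of oxidation and conjugation were taken by family name, which gave 16 named genes besides the members. At day 14, 7 were lower, 2 were higher and 7 did not pass, against 8.24% lower and 7.07% higher over all probes. The 7 were among 13 with a day 28 difference below 0, a share no higher than the 66.3% of all other listed genes of that direction. The median difference of the 16 was -1.02, beside -1.53 for the members, -1.01 for the 519 listed genes with a day 28 difference below 0 and -0.01 for all probes. Since the 16 genes too were listed at day 28, their direction then was fixed by the choice, and the medians describe the lists only. The 16 include 3 genes that were higher at day 28, whereas the members and the 519 were all lower then. The medians are thus of unlike sets. The lower count was 4 without any one of the 3 day 14 saline rats or without silica rat 1, 5 without silica rat 3 and 8 without silica rat 2, and the higher count was 2 each time.

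The glutathione transferases on the list fell at day 14. Gstm7 differed by -1.42 ± 0.31, Gstm2 by -1.19 ± 0.25 and Gsta4 by -0.72 ± 0.14, with adjusted p between 0.0075 and 0.014. A second Gsta4 probe gave -1.03 with an adjusted p of 0.0503, which did not pass. Adhfe1, a hydroxyacid-oxoacid transhydrogenase, differed by -1.06 ± 0.18 (adjusted p = 0.0048), but only 1 of 3 day 14 silica arrays read it well above background. In contrast, Aldh1l2, a mitochondrial folate dehydrogenase, rose by 2.28 ± 0.26 (adjusted p = 0.00058). The methyltransferase Tpmt rose by 1.52 ± 0.18 (adjusted p = 0.00063). The aldo-keto reductase Akr7a3 fell by 1.17 ± 0.34 (adjusted p = 0.040), and the cytochrome P450 Cyp2d4 fell by 0.74 ± 0.21 (adjusted p = 0.038). The remaining gene that fell was Cyp2e1. The aldehyde dehydrogenase family thus held a gene that fell, Aldh1a1, and one that rose, Aldh1l2. The cytochromes P450 Cyp4b1 (-1.58 ± 0.51, adjusted p = 0.058) and Cyp2b2 (-1.28 ± 0.40, adjusted p = 0.053) had the largest day 14 differences among genes that did not pass.

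**Figure D4:**
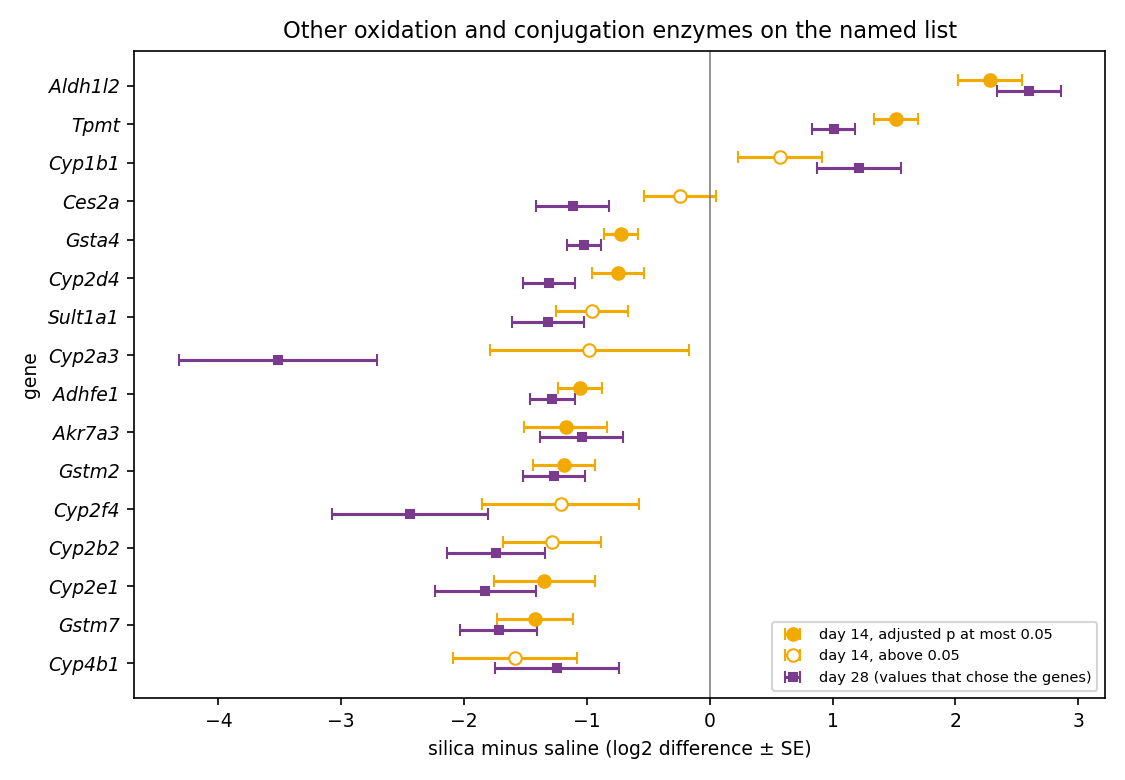
Silica minus saline difference (log2 ± SE) of the 16 other oxidation and conjugation enzymes at day 14 (circles, filled where the adjusted p was at most 0.05) and day 28 (squares). At day 14, 7 filled circles are below 0 and 2 are above it.

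Markers of lung cell types moved with the same groups, as far as they could be named. Of 9 endothelial markers, 5 were named, among them the defining Cdh5, and their summed linear signal was 21324 to 26471 in day 14 saline and 7094 to 14082 in day 14 silica. At day 28 it was 29101 to 32572 in saline and 7873 to 14299 in silica. Of 8 club cell markers, 3 were named, all cytochromes P450 that are also in the enzyme list, and the secretoglobin that defines the type was not. Their sum was 2936 to 3973 in saline and 426 to 2260.3 in silica at day 14, and 3001 to 4063 and 1079.6 to 1829 at day 28. The alveolar type 1 markers Aqp5 and Rtkn2, 2 of 5, summed to 6014 to 7998 and 1900.4 to 4811 at day 14, and to 8101 to 9756 and 2282 to 4564 at day 28, in saline and silica in that order. These 3 sums were lower in silica lungs without overlap, as was true of silica below saline at day 14 in 81.9% of the 519 listed genes with a day 28 difference below 0. Sums are dominated by the brightest probe. Singly, Cyp2a3 overlapped at day 14, and Cyp2f4, Cyp4b1, Cyp2a3, Aqp5 and Vwf did not pass the day 14 test.

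The ciliated cell marker Tppp3, 1 of 5, had a linear signal of 4718 to 5638 in saline and 954 to 2427 in silica at day 14, and of 4055 to 5413 and 1142 to 1860.5 at day 28. The erythrocyte marker Hbb-b1, 1 of 5, read 12128 to 24781 and 3736 to 7997 at day 14, and 19997 to 44582 and 1458 to 9812 at day 28. The opposite direction was seen for 5 of 8 macrophage markers, with Cd68 among them, whose sum was 1684 to 2798 in saline and 16757 to 25529.7 in silica at day 14, and 2199 to 2341 and 24768 to 30419 at day 28. Col1a1, the single named marker of 7 for fibroblasts and smooth muscle, read 563 to 632 and 656 to 1467 at day 14, and 231 to 662 and 818 to 1607 at day 28. Neither Hbb-b1 (limma adjusted p = 0.12) nor Col1a1 (limma adjusted p = 0.36) passed the day 14 test. For alveolar type 2 cells (7 markers), neutrophils (4) and lymphocytes (5), 0 markers were named. The named markers come from the same day 28 list. The part of cell composition in the enzymes' differences was not tested.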

How the data were processed

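RNA of 12 rat lungs was measured on single-colour Agilent arrays. Per the labels and file headers, the authors read the slides with Agilent Feature Extraction 10.7.1.1, and the deposited spot intensity is corrected for background and spatial trend with no scaling between arrays. A log2 table of theirs was deposited as well, quantile normalized over the 12 arrays, which served as an alternative. The genome build of the probes is not given in the sources used here.

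Control spots (1439 of 62972 per array) were dropped. Outlier spots were dropped too, except where every spot of a probe on an array was an outlier. Replicate spots were averaged to 51255 probes. Of these, 60.5% to 69.5% were well above background on an array and 0 were saturated. The log2 of the averaged intensity was quantile normalized across all 12 arrays together. Probes had to be well above background in every rat of some group, and the 34097 that met this were fitted with limma 3.58.1 in R 4.3.3, with 4 group means and Benjamini-Hochberg adjustment. A probe passed at an adjusted p of at most 0.05. The number of arrays limits the precision. Nothing but the labels shows that the samples are separate rats. Tables and plots were made in Python 3.11.15 with scipy 1.17.1, pandas 2.3.3, matplotlib 3.10.9 and numpy 2.4.6. The fit was tested on simulated data.

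Gene names came from the study's list of probes that differed at day 28, of which 1279 of 2275 rows were given and whose probe sequences were those of the arrays. For 1050 of the 1279 probes the accession was found in RefSeq. A gene with several probes (158 genes) is given by its brightest. Protein values and the authors' own fold changes and p-values were not used. The members and all lists were chosen with earlier results of these data known. The family pattern for the other enzymes had a letter-case error and matched 6 of the genes given here. It was corrected, after the data were seen, to the intended families, which give 16. The results of a few genes are not reported here, and these are left out of the list's counts. Named are the 5 members, the 8 other enzymes with the smallest day 14 adjusted p, the 2 not passing with the largest difference, the 3 genes most like each member, and markers. Further cases named beside a count of the report, such as the second probe of Gsta4 and Cyp2e1, were added after their values were seen. Alternatives were normexp correction (offset 50), scaling to the 75th percentile, the authors' table, other filters on dim probes, slide and replicate number as blocks, the arrays of a day alone, the methods' t-test in place of limma, and leaving out each array. Replicate numbers do not pair the rats.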

Additional observations from a re-analysis of the deposited data

How the results depend on the processing

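Fmo1, Fmo2 and Aldh1a1 kept their sign under every setting run at day 14 and day 28, as did Aox3 and Akr1cl. With the methods' t-test after Benjamini-Hochberg adjustment, no member passed at day 14. The test lost Fmo2 (-2.07, adjusted p = 0.080), Fmo1 (-1.80, adjusted p = 0.15) and Aldh1a1 (-1.53, adjusted p = 0.20), and over all probes it called 2 lower and 3 higher at day 14 and 2573 lower at day 28. At an unadjusted p and a fold of 2 it called 929 lower and 969 higher at day 14 and 1538 lower and 1580 higher at day 28. Fmo1, Fmo2 and Aldh1a1 passed at that setting at day 14, and Aox3 and Akr1cl did not. The methods state a fold and a p for genes and mention the adjustment in the sentence on proteins. The 6 arrays of day 14 alone gave 1604 lower and 1543 higher, and Aldh1a1 at -1.51 (adjusted p = 0.055). With slide as a block, day 28 had 1634 lower and 2711 higher, Aldh1a1 was at -1.35, and the interaction had 2 lower and 2 higher in place of 0. The slide block is estimated from the day 28 saline rats alone, of which only rat 1 was on slide 1. The interaction had 1 higher probe with normexp correction, without a filter and with the filter on all 12 arrays. Aox3 at day 28 was -0.46 with normexp correction, and it was not tested under the filter on all 12 arrays. The causes of these changes were not tested. Leaving out each rat in turn gave 1065 to 3474 lower and 1442 to 2526 higher probes at day 14, 2820 to 5199 and 3118 to 5126 at day 28, and 0 to 232 and 0 to 32 for the interaction, most without day 28 saline rat 1. The day 14 difference then ranged from -2.12 to -1.33 for Fmo1, from -2.26 to -1.83 for Fmo2, from -1.91 to -1.04 for Aldh1a1, from -0.89 to -0.29 for Aox3 and from -0.75 to -0.14 for Akr1cl. The interaction value of Fmo2 was 0.26 without day 28 silica rat 1. The other enzymes numbered 4 to 8 lower when a rat was left out, 10 lower with normexp correction, 6 lower with scaling to the 75th percentile, and 2 lower with the 6 genes of the pattern as first written, an alternative chosen after the data were seen. Same-numbered rats of a day had correlations of deviations from -0.17 to 0.073, so the numbers were not taken as pairs. With the replicate block, 2590 probes were lower and 2105 higher at day 14 and 4364 and 4279 at day 28, with 0 for the interaction, and no member's call changed.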
